A study of Mus musculus with 9 samples.

Results

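Glutamate is cleared from the extracellular space by sodium-coupled transporters of the SLC1 family and is loaded into synaptic vesicles by proton-driven transporters of the SLC17 family. In the cortex, uptake is carried mainly by glia, whereas vesicular loading defines the excitatory neuron. Close relatives in the SLC1 family exchange neutral amino acids such as alanine, serine, cysteine and glutamine. The 9 genes described here are the uptake transporters *Slc1a1*, *Slc1a2*, *Slc1a3* and *Slc1a6*, the neutral amino acid exchangers *Slc1a4* and *Slc1a5*, and the vesicular transporters *Slc17a6*, *Slc17a7* and *Slc17a8*. They were chosen by gene symbol, with every RefSeq transcript of each gene in the count table, which gave 19 of 107384 transcript rows and 9 of 21254 protein-coding genes with a matched row.

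RIP-seq sequences the RNA that comes down with a protein when an antibody pulls it out of a lysate. The RNA-binding protein here was CELF2. All libraries came from P0 cortex of *Celf2* KI mice heterozygous for p.R493H, of which the cytoplasmic fraction was taken, so the controls carry this allele too and no wild-type cortex was compared. CELF2-KI RIP used 10 µg of rabbit anti-CELF2 antibody for 3 hours, IgG RIP used the same amount of normal rabbit IgG for the same time, and input was RNA from an aliquot of the fraction that saw no antibody. Each group held 3 libraries, described as biological replicates. The labels name a mixture of neurons, radial glia, astrocytes, oligodendrocyte precursors, microglia and endothelial cells, and in the level of an mRNA the number of cells of a type and the RNA per cell cannot be told apart. The comparisons themselves are between a pull-down and its controls in cortex of the same age and genotype. The labels do not say how many cortices entered each lysate.

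Total estimated counts ranged from 15919600 to 20052716 for CELF2-KI RIP, from 17365561 to 28773130 for IgG RIP and from 69125700 to 105116427 for input. Rows without a matched gene held 43.5% and 41.5% of the counts in replicates 1 and 2 of IgG RIP, 21.1% in replicate 3, and between 9.2% and 12.6% in the other 6 libraries. *Celf2* mRNA itself was higher in CELF2-KI RIP, by 1.46 against IgG RIP and 1.11 against input in log2 fold change. Levels are counts-per-million (CPM) on library sizes scaled by the trimmed mean of M values (TMM), given for replicates 1, 2 and 3 in that order, with anti-CELF2 standing for CELF2-KI RIP and with IgG for IgG RIP. A gene was called where the edgeR quasi-likelihood test gave an FDR under 0.01 and the estimated change was at least 2-fold. Of the marker lists for the labelled cell types, all 14 radial glia and astrocyte, 8 excitatory neuron and 8 inhibitory neuron genes passed the filter on low counts. So did all 5 oligodendrocyte precursor and 6 endothelial genes and 6 of 7 microglial genes.

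All 9 transporters passed the filter on low counts. Against IgG RIP, mRNAs of 6 of them were called higher, namely *Slc1a1*, *Slc1a2*, *Slc1a4*, *Slc17a6*, *Slc17a7* and *Slc17a8*, against 13.4% of all 15267 genes tested. Over input, 4 were called higher, *Slc1a1*, *Slc1a2*, *Slc1a4* and *Slc17a7*, against 14.6% of all genes. These 4 passed both comparisons, as did 7.58% of all genes. *Slc1a6* was called lower than input, as were 15.5% of all genes, and none of the 9 was called lower than IgG RIP, where 13.6% of all genes were. At an unadjusted p under 0.05 the edgeR test placed 1 of the 9, *Slc1a6*, below IgG RIP, with no share of all genes at that limit to set beside it. DESeq2 called 0. Their median log2 fold change was 1.53 against IgG RIP and 0.83 against input, beside -0.06 and 0.19 for all genes tested.

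**Figure D1:**
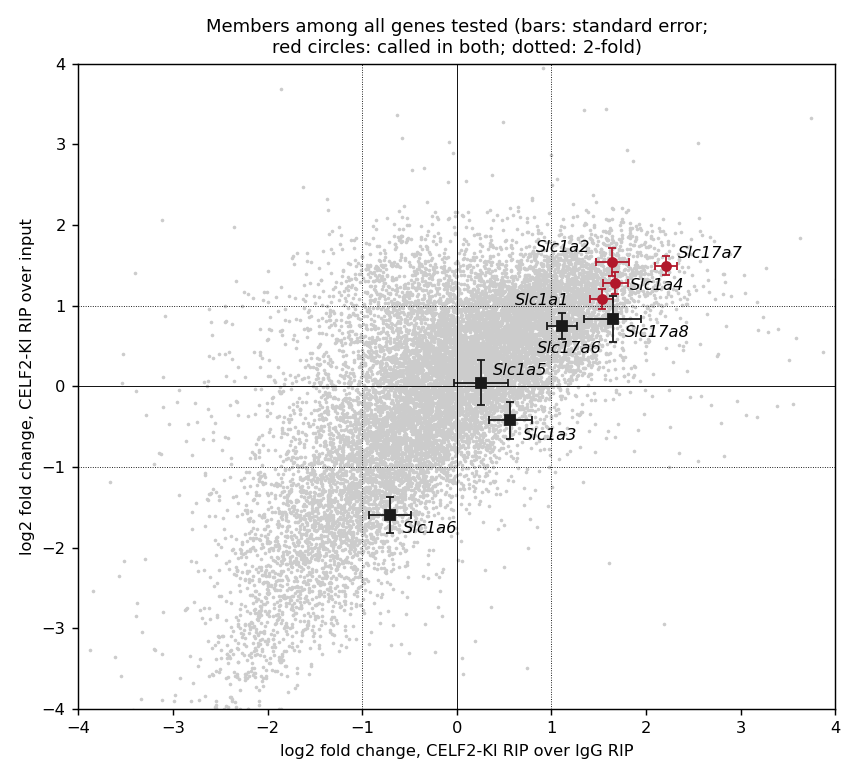
Log2 fold change against IgG RIP (x axis) and against input (y axis) for all genes tested (grey) and the 9 transporters, with standard errors from the edgeR fit. Red circles are genes called in both comparisons, black squares the other members, and dotted lines mark 2-fold. The 4 called genes lie between 1.53 and 2.21 on the x axis and between 1.08 and 1.54 on the y axis, *Slc1a6* lies below 0 on both, and 142 genes fall outside the axes.

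Among the uptake transporters, *Slc1a2* encodes GLT-1, the main glutamate transporter of astrocytes (chr2:102658239-102790784, GRCm38.p6). Its level was 1317, 1785 and 1311 CPM with anti-CELF2, 531, 454 and 428 CPM with IgG and 608, 497 and 416 CPM in input. Every CELF2-KI RIP library was above every control library, and the IgG RIP and input ranges overlapped. The log2 fold change was 1.64 ± 0.18 (SE, n = 3 per group, edgeR FDR 3.57e-05) over IgG RIP and 1.54 ± 0.17 (FDR 4.47e-05) over input. *Slc1a2* was the member for which the 2 controls lay closest, with a log2 fold change of IgG RIP over input of -0.11 (edgeR FDR 0.646).

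*Slc1a3* encodes GLAST, the glutamate transporter of radial glia and of astrocytes (chr15:8634124-8710807). Its level was 710, 342 and 424 CPM with anti-CELF2, 338, 310 and 351 CPM with IgG and 746, 647 and 588 CPM in input. CELF2-KI RIP replicate 1 lay within the input range while replicates 2 and 3 lay near IgG RIP, so CELF2-KI RIP overlapped both controls. The log2 fold change of 0.56 ± 0.23 over IgG RIP (edgeR FDR 0.0585) and of -0.42 ± 0.23 over input (FDR 0.131) did not pass. Without CELF2-KI RIP replicate 1, these values were 0.20 and -0.79. GLAST and GLT-1 mRNAs were therefore compared inside each library, where depth and scaling cancel.

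The ratio of *Slc1a2* to *Slc1a3* counts was 1.85, 5.22 and 3.09 with anti-CELF2, 1.57, 1.47 and 1.22 with IgG and 0.815, 0.768 and 0.708 in input. All 3 CELF2-KI RIP libraries were above all 6 controls, and IgG RIP was above input throughout. The mean log2 ratio was higher in CELF2-KI RIP than in the controls by 1.58 (exact two-sided permutation test over 9 libraries, p = 0.0238, adjusted over the 3 ratios compared p = 0.0238). This is the smallest p that the two-sided test used here can give for 3 against 6 libraries. The test treats IgG RIP and input libraries as interchangeable, although they differed in this ratio. Against IgG RIP alone the difference was 1.14 and against input alone 2.03, and 3 against 3 libraries cannot give an exact p below 0.10.

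The fixed markers of radial glia and astrocytes were lower in sum in CELF2-KI RIP. Their summed level was between 1040 and 1323 CPM with anti-CELF2, 1534 and 1857 CPM with IgG and 1957 and 2001 CPM in input. Of the 14 genes, edgeR called 0 higher than both controls, against 7.58% of all genes, and 4 lower than both, against 9.54%. In 3 of the 14, *Aqp4*, *Sox9* and *Gja1*, all CELF2-KI RIP libraries exceeded all controls, as for 25.2% of all genes. In 7 all were below, as for 19.9%. At an unadjusted p under 0.05 the edgeR test placed 2 of the 14 above both controls, with no share of all genes to set beside it. The part of these markers in the values of *Slc1a2* and *Slc1a3* was not tested. Summed erythroid markers were also lower in CELF2-KI RIP, between 92.7 and 95.0 CPM, than in IgG RIP, between 366 and 584 CPM, and input, between 877 and 1135 CPM.

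*Slc1a1* encodes EAAT3, the uptake transporter of neurons, which also carries cysteine (chr19:28835135-28913960). Its level was 261, 287 and 227 CPM with anti-CELF2, 83.5, 84.7 and 99.1 CPM with IgG and 125, 127 and 114 CPM in input. The 3 groups did not overlap, with CELF2-KI RIP highest and IgG RIP lowest. On the log2 scale the change was 1.53 ± 0.12 over IgG RIP (edgeR FDR 1.11e-05) and 1.08 ± 0.12 over input (FDR 4.06e-05). The second value stood close to the 2-fold limit. It was 0.99 without input replicate 2, 1.0 without CELF2-KI RIP replicate 2, and 0.85 in a fit of CELF2-KI RIP and input alone, none of which was called. Adding replicate number as a block changed neither call, with 0.85 in that fit and 1.08 in the fit of all 9 libraries.

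*Slc1a6* encodes EAAT4, best known from cerebellar Purkinje cells (chr10:78780086-78814825). It was scarce, at 6.08, 6.16 and 6.87 CPM with anti-CELF2, 8.89, 14.4 and 8.03 CPM with IgG and 19.3, 20.5 and 18.0 CPM in input. All 3 CELF2-KI RIP libraries were below all 6 controls, as for 19.9% of all genes, and rested on 76 to 80 estimated counts each. It was the only one of the 9 transporters called lower in either comparison, with a log2 fold change over input of -1.60 ± 0.22 (edgeR FDR 0.000141). The value over IgG RIP, -0.70 ± 0.22, was not called (FDR 0.0208).

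**Figure D2:**
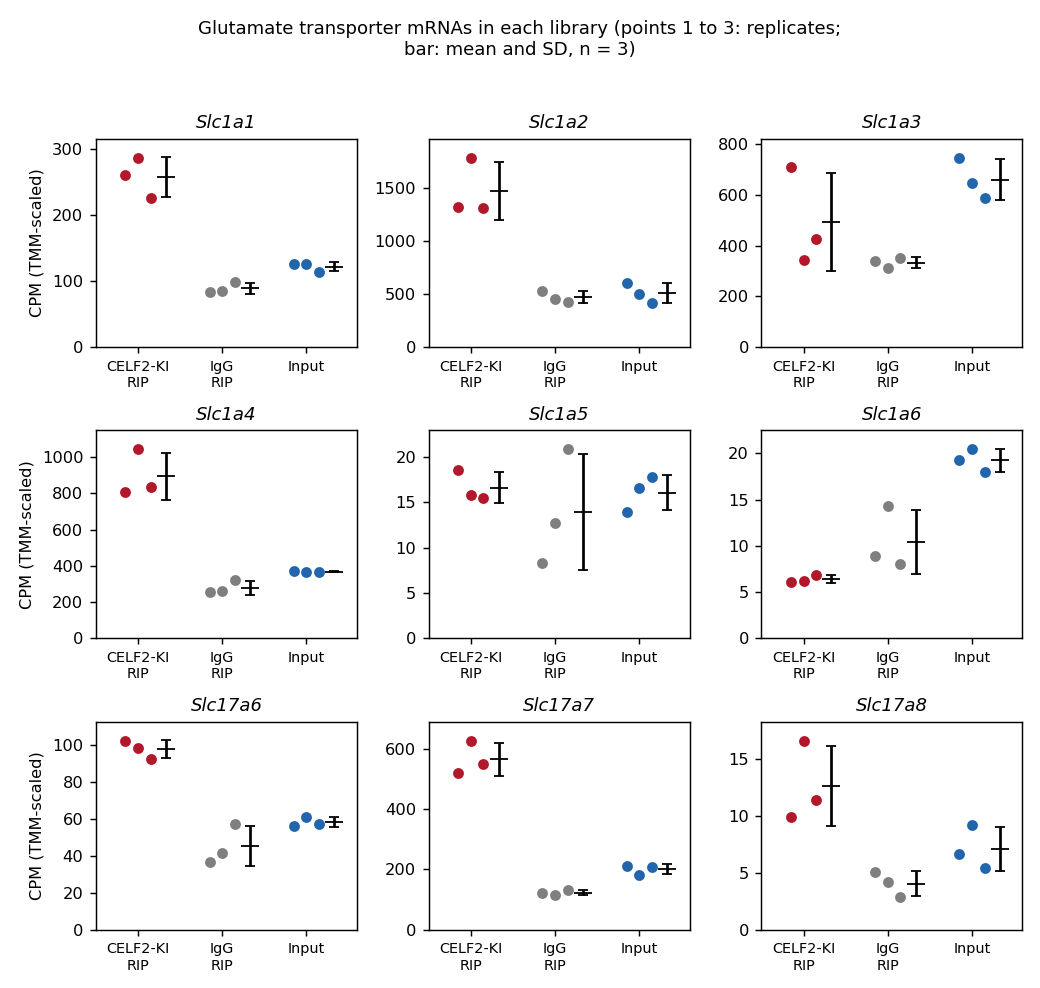
TMM-scaled CPM of each transporter mRNA (y axis, from 0, own range per panel) in the 3 libraries of CELF2-KI RIP (red), IgG RIP (grey) and input (blue), in the order of replicate number. Bars give mean and SD (n = 3). CELF2-KI RIP lies above both controls for *Slc1a1*, *Slc1a2*, *Slc1a4* and the 3 *Slc17a* genes, below both for *Slc1a6*, and overlaps them for *Slc1a3* and *Slc1a5*.

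The 2 neutral amino acid exchangers differed from each other. *Slc1a4* encodes ASCT1, which exchanges alanine, serine and cysteine (chr11:20302180-20332713). Its level was 805, 1043 and 835 CPM with anti-CELF2, 255, 261 and 324 CPM with IgG and 372, 365 and 368 CPM in input. No group overlapped another, and input varied least. The log2 fold change was 1.67 ± 0.13 over IgG RIP (edgeR FDR 1.11e-05) and 1.28 ± 0.13 over input (FDR 2.75e-05).

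*Slc1a5* encodes ASCT2, a glutamine exchanger prominent in dividing cells (chr7:16781334-16798274). Its level was 18.6, 15.8 and 15.4 CPM with anti-CELF2, 8.26, 12.7 and 20.9 CPM with IgG and 14.0, 16.6 and 17.8 CPM in input. The groups overlapped, and IgG RIP was the most spread. Neither the log2 fold change over IgG RIP, 0.25 ± 0.28 (edgeR FDR 0.479), nor that over input, 0.04 ± 0.28 (FDR 0.900), passed. The first was -0.03 without IgG RIP replicate 1 and 0.67 without replicate 3, and the sign of both depended on the scaling of the libraries. Relative to the median of all genes, which moves with the scaling, the change of *Slc1a5* over input was between -0.15 and -0.14 under all 5 scalings.

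The ratio of *Slc1a4* to *Slc1a5* counts was 43.3, 65.9 and 53.9 with anti-CELF2, 30.8, 20.5 and 15.5 with IgG and 26.6, 22.1 and 20.7 in input. The controls overlapped each other and all lay below CELF2-KI RIP. The difference in mean log2 ratio from the 6 controls, again pooled, was 1.27 (exact two-sided permutation p = 0.0238, adjusted p = 0.0238).

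Of the vesicular transporters, *Slc17a7* encodes VGLUT1, which loads glutamate in most cortical excitatory neurons (chr7:45163921-45176139). Its level was 518, 627 and 549 CPM with anti-CELF2, 120, 116 and 131 CPM with IgG and 212, 181 and 207 CPM in input. The 3 groups were separate. In the edgeR fit the log2 fold change was 2.21 ± 0.12 over IgG RIP (edgeR FDR 3.93e-06), the largest among the 9 genes, and 1.50 ± 0.11 over input (FDR 4.80e-06). IgG RIP was itself below input by a log2 fold change of -0.71 (FDR 0.00108), which was under 2-fold.

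*Slc17a6* encodes VGLUT2, which predominates in subcortical neurons and is also found in the young cortex (chr7:51621830-51671126). Its level was 103, 98.6 and 92.7 CPM with anti-CELF2, 36.7, 41.6 and 57.3 CPM with IgG and 56.3, 61.3 and 57.4 CPM in input. CELF2-KI RIP was above all controls, and IgG RIP replicate 3 reached the level of input. The log2 fold change was 1.11 ± 0.16 over IgG RIP (edgeR FDR 0.000204), which was called, and 0.75 ± 0.16 over input (FDR 0.00198), which was under 2-fold. The first was 0.98 without IgG RIP replicate 1 and 0.66 without IgG RIP replicates 1 and 2 together, and neither was called.

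*Slc17a8* encodes VGLUT3, found in scattered neurons that mostly use another transmitter (chr10:89574020-89621249). Its level was 9.92, 16.6 and 11.4 CPM with anti-CELF2, 5.07, 4.16 and 2.87 CPM with IgG and 6.69, 9.21 and 5.43 CPM in input. The groups did not overlap, although CELF2-KI RIP replicate 1 was only slightly above input replicate 2. On the log2 scale the change was 1.65 ± 0.30 over IgG RIP (edgeR FDR 0.00105) and 0.83 ± 0.28 over input (FDR 0.0275), the second not called. In the IgG RIP libraries it rested on between 40 and 81 estimated counts.

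*Slc17a7* and *Slc17a6* were compared in the same way as *Slc1a2* and *Slc1a3*. Their count ratio was 5.06, 6.35 and 5.91 with anti-CELF2, 3.28, 2.77 and 2.28 with IgG and 3.76, 2.96 and 3.61 in input. The lowest CELF2-KI RIP library exceeded the highest control. The mean log2 ratio was higher by 0.91 than in the 6 controls, again pooled (exact two-sided permutation p = 0.0238, adjusted p = 0.0238).

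**Figure D3:**
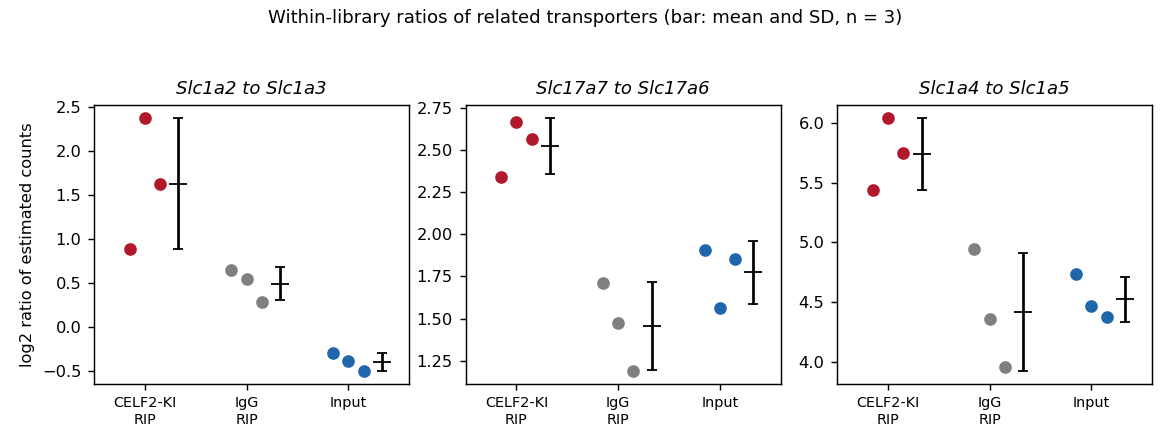
Log2 ratio of estimated counts of *Slc1a2* to *Slc1a3*, *Slc17a7* to *Slc17a6* and *Slc1a4* to *Slc1a5* (y axis, own range per panel, not starting at 0) in each library of the 3 groups, with mean and SD (n = 3). In all 3 panels the CELF2-KI RIP points lie above the 6 control points.

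Summed markers of excitatory neurons were between 1373 and 1881 CPM with anti-CELF2, 1106 and 1226 CPM with IgG and 944 and 1116 CPM in input. Of the 8 genes, 2, *Bcl11b* and *Tbr1*, were called higher than both controls, against 7.58% of all genes, and 0 lower, against 9.54%. *Fezf2* was called lower than input, with a log2 fold change of -1.25, and lay below every control. Summed markers of inhibitory neurons were between 532 and 731 CPM, 315 and 365 CPM, and 513 and 525 CPM in the same order. Of these 8 genes, 1 was called higher than both controls and 1 lower, against the same shares of all genes. The part of these shifts in the values of the vesicular transporters was not tested.

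Taken across the family, for 6 of 9 genes the lowest CELF2-KI RIP library exceeded the highest control, as it did for 25.2% of all genes tested. The control groups also differed. IgG RIP was below input for 9 of 9 genes in fitted log2 fold change, with a median of -0.45 beside -0.00 for all genes, and 6 were lower at an edgeR FDR under 0.05, as were 19.5% of all genes. None of the 9 was called different between the controls by edgeR, where 6.79% of all genes were called higher and 5.0% lower in IgG RIP. At an unadjusted p under 0.05 edgeR gave 7, all lower, beside 24.2% of all genes, and DESeq2 called 1, *Slc1a3*. With IgG RIP replicates 1 and 2 left out, *Slc1a1*, *Slc1a2*, *Slc1a4*, *Slc17a7* and *Slc17a8* were still called over the remaining IgG RIP library, with log2 fold changes between 1.27 and 2.03. In that fit the single library is assumed to vary like those of the other groups.

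The library scaling set the level of all fold changes. Between the TMM scaling used here and scaling to total counts, the median of all genes shifted by -0.37 over IgG RIP and -0.46 over input. Measured from the median of all genes, the change over input was between 1.33 and 1.34 for *Slc1a2*, 1.30 for *Slc17a7* under each scaling, between 1.08 and 1.09 for *Slc1a4*, and between 0.88 and 0.89 for *Slc1a1*. Measured from the same median over IgG RIP, the 6 called genes lay between 1.16 and 2.26. A scaling shifts all genes nearly alike, so values measured from the median stay almost constant by construction.

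The deposited rows give a view of transcripts. *Slc1a1*, *Slc1a3*, *Slc1a4* and *Slc17a7* had 1 row each, so their row is the gene, and the other 5 genes shared 15 rows. How reads are divided among the rows of a gene is an estimate of the quantifier, whose uncertainty the table does not carry. In the test of 39137 rows, 3 member rows were called higher than both controls, those of *Slc1a1*, *Slc1a4* and *Slc17a7*, against 1.93% of all rows, and none lower than both, against 1.66%. Of 14 tested rows in genes with more than 1 row, edgeR called 0 in both comparisons. At an unadjusted p under 0.05 the edgeR test placed 3 higher in both, with no share of all rows to set beside it. With TMM factors taken from the rows, 1 of all member rows was called in both. It was also 1 without input replicate 2.

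**Figure D4:**
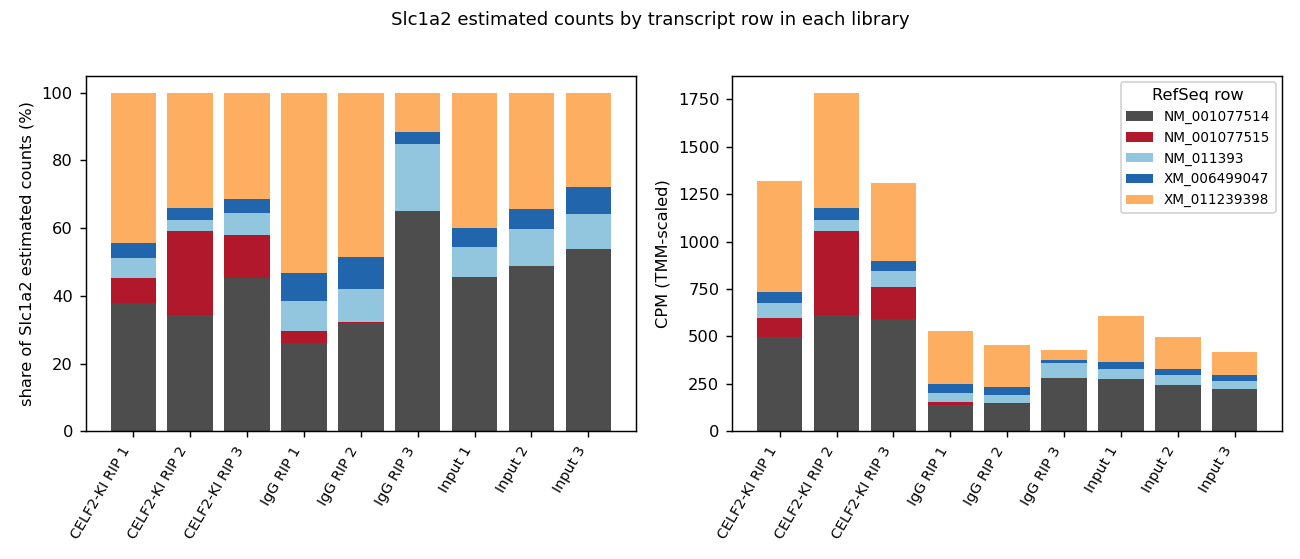
Estimated counts of *Slc1a2* divided among its 5 RefSeq rows in each library, as a share of the gene in percent (left) and as TMM-scaled CPM (right). The row NM_001077515, in red, holds between 7.36% and 24.7% of the counts in CELF2-KI RIP, up to 3.46% in IgG RIP and up to 0.0880% in input.

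A single row differed from the rest of its gene, NM_001077515 of *Slc1a2*. It received 1211, 5735 and 1883 estimated counts with anti-CELF2, 294, 19.0 and 0.0 with IgG and 33.7, 2.9 and 0.2 in input. Its share of all *Slc1a2* counts was 7.36%, 24.7% and 12.8% with anti-CELF2, 3.46%, 0.413% and nearly 0 with IgG and between 0.00065% and 0.0880% in input. Each CELF2-KI RIP library was above each control, and both CELF2-KI RIP and IgG RIP were widely spread. Relative to the rest of the gene its change over input was 8.74 on the log2 scale (edgeR diffSpliceDGE FDR 5.21e-05) and over IgG RIP 3.47 (FDR 0.0553), beside 0.508% and 0.702% of 32896 rows called in these tests. The first fold has input libraries with almost no counts in its denominator and its size depends on them. The limma-voom form of the test gave an FDR of 0.0411 over input and called 0 of the 14 rows, with 1 at an FDR under 0.05. As a row on its own, NM_001077515 was not called over IgG RIP (FDR 0.117) or input (FDR 0.0228).

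Under the TMM scaling used here, the calls of the *Slc1a2* gene did not depend on this row. Without it the log2 fold change was 1.41 over IgG RIP (edgeR FDR 3.19e-05) and 1.29 over input (FDR 4.60e-05). Its removal was not tried under other scalings. With the row kept, the value over input was 1.06 under total counts. The remaining rows also moved upward in fitted value but unequally. NM_001077514 had 1.60 ± 0.27 over IgG RIP, which was called, and 1.20 ± 0.27 over input, which was not (edgeR FDR 0.0206). XM_011239398 had 1.53 ± 0.58 and 1.60 ± 0.58, XM_006499047 had 0.79 ± 0.35 and 0.87 ± 0.35, and NM_011393 had 0.35 ± 0.27 and 0.56 ± 0.27, none of which was called. The split between the 2 main rows was unstable in IgG RIP, where XM_011239398 held 53.3%, 48.6% and 11.6% of *Slc1a2* counts in replicates 1, 2 and 3, beside 28.0% to 40.0% in input.

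The 2 rows of *Slc17a6* took nearly equal parts in CELF2-KI RIP, where NM_080853 held 49.0%, 50.1% and 49.9% of the gene. In input it held 68.6%, 64.2% and 95.0%, and in IgG RIP 54.8%, 70.3% and 52.4%. All CELF2-KI RIP shares were below all control shares, yet the within-gene test did not pass for either row (edgeR FDR 1.0 in both comparisons). For *Slc17a8*, the row NM_182959 changed by 2.02 ± 0.40 on the log2 scale against IgG RIP (FDR 0.0131) and 0.55 ± 0.39 against input, and NM_001310710 reached 4.00 CPM at most. The rows of *Slc1a5* and *Slc1a6* other than the leading one, NM_009201 and NM_009200, stayed at or below 3.61 CPM, and XM_006513424 of *Slc1a6* did not pass the filter on low counts.

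To place the transporters among their partners, 36 other genes of the glutamate, glutamine and inhibitory transmitter cycle were read from a fixed list, and all passed the filter on low counts. Over IgG RIP, 7 were called higher, against 13.4% of all genes, and 2 lower, against 13.6%. Over input, 7 were called higher, against 14.6%, and 1 lower, against 15.5%. In both comparisons 4 rose, against 7.58% of all genes, and 1 fell, against 9.54%. The median log2 fold change of the list was 0.36 over IgG RIP and 0.45 over input.

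The 4 genes higher in both were *Slc38a1* and *Slc38a2*, transporters that bring glutamine and other neutral amino acids into cells, *Slc7a11*, the light chain of the cystine and glutamate exchanger, and *Slc6a9*, the glycine transporter GLYT1. *Slc38a1* was at 755, 1227 and 924 CPM with anti-CELF2, between 313 and 338 CPM with IgG and between 350 and 362 CPM in input, with log2 fold changes of 1.58 and 1.45. The values over IgG RIP and input were 1.29 and 1.06 for *Slc38a2* and 1.40 and 1.26 for *Slc6a9*. *Slc7a11* had 1.65 ± 0.19 and 1.37 ± 0.19 (edgeR FDR 6.14e-05 and 0.000145). With libraries scaled to total counts, 0 list genes were called higher than both controls.

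The gene lower in both was *Slc3a2*, which encodes the heavy chain that pairs with the *Slc7a11* product. It was at 115, 94.2 and 95.9 CPM with anti-CELF2, 169, 217 and 265 CPM with IgG and 237, 256 and 279 CPM in input. CELF2-KI RIP was below every control. The log2 fold change was -1.09 ± 0.16 over IgG RIP (edgeR FDR 0.000289) and -1.34 ± 0.16 over input (FDR 7.07e-05), so the mRNAs of the 2 chains of one exchanger lay on opposite sides. Without IgG RIP replicate 3 *Slc3a2* was not called in both.

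**Figure D5:**
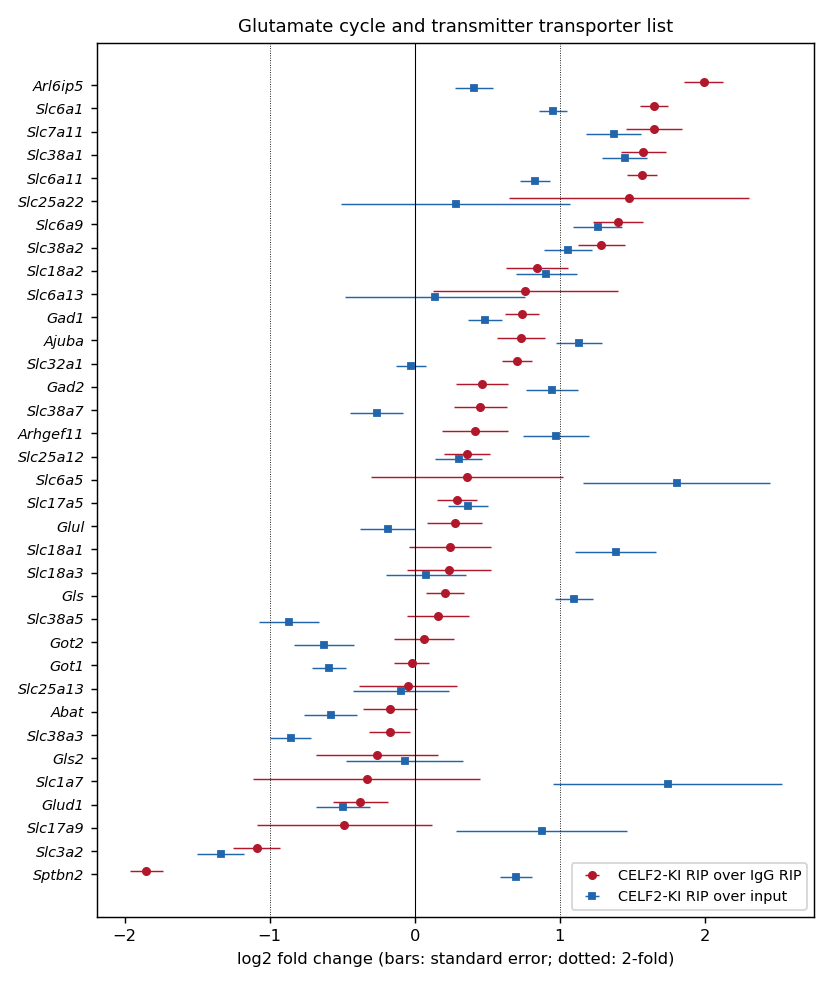
Log2 fold change with standard error (x axis) for 35 of the 36 list genes (y axis), over IgG RIP (red circles) and over input (blue squares), ordered by the first. *Slc6a12* is left out because it had almost no counts in IgG RIP. *Slc38a1*, *Slc38a2*, *Slc7a11* and *Slc6a9* lie beyond the dotted 2-fold line in both comparisons, and *Slc3a2* lies beyond it on the other side.

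Genes whose log2 CPM followed *Slc1a2* and *Slc17a7*, the transporters with the largest fold changes over input, across the 9 libraries were read as a description, since the libraries fall into 3 groups. The 3 closest to *Slc1a2* were *Zdhhc21*, a palmitoyltransferase (Pearson r = 0.995), *Tmem229a* (r = 0.992) and *Mapk9*, a kinase of the JNK family (r = 0.991). *Zdhhc21* and *Tmem229a* were called higher than both controls. Over input *Mapk9* had a log2 fold change of 0.99, just under 2-fold. The 3 closest to *Slc17a7* were *Scd2*, a fatty acid desaturase (r = 0.997), *Rnf145*, a ubiquitin ligase (r = 0.996), and *Phf5a*, a subunit of the splicing machinery (r = 0.996), and all were called higher than both controls.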

How the data were processed

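Cytoplasmic RNA of P0 KI cortex was measured in 9 libraries. Per the labels and methods, rRNA was depleted, directional libraries were sequenced, reads were trimmed with fastp 0.23.4, rRNA reads were removed with Ribodetector 0.3.1, and transcripts were quantified with kallisto 0.51.1. The authors deposited estimated counts per RefSeq transcript, not normalized for depth or length. The methods name Ensembl as source of the transcriptome and the submitters' processing notes name mm10.

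Rows were matched to genes by accession, ignoring version, with a RefSeq table of GRCm38.p6, and 20662 of 107384 rows without a match were left out of tests and library sizes. Counts were summed per gene and rounded. Protein-coding genes reaching 0.5 CPM in 3 or more libraries were fitted with edgeR 4.0.16 (R 4.3.3, TMM, 1 mean per group, quasi-likelihood test, Benjamini-Hochberg over all genes). Rows were fitted likewise on the gene fit's library sizes, and compared within genes with diffSpliceDGE. Its coefficients were converted to log2. Ratios used a prior of 0.5 counts and exact permutation tests (scipy 1.17.1). DESeq2 1.42.0 and limma 3.58.1 gave alternatives. Figures used matplotlib 3.10.9. The fitting steps were tested on simulated data.

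The members and lists were chosen with earlier results of these data known. Named are all members and their rows, list genes called in both comparisons in the same direction, the 3 genes most correlated with *Slc1a2* and with *Slc17a7*, and *Celf2*. Standard errors and p-values cover only the spread between libraries, whose reads have no molecular identifiers. Replicates differed by more than sampling noise (chi-square per gene 11.9 to 44.1). Deviations of same-numbered libraries from their group means correlated across genes by 0.110, 0.117 and 0.122 between CELF2-KI RIP and input, by -0.056 to 0.043 between CELF2-KI RIP and IgG, and by 0.030 to 0.065 between IgG and input, so the numbers were read as pairing CELF2-KI RIP with input only. No transcript lengths were used, so levels were not compared between genes.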

Additional observations from a re-analysis of the deposited data

How the results depend on the processing

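*Slc17a7* was called higher than both controls under every alternative tried. *Slc1a2* and *Slc1a4* were called over IgG RIP under every alternative, and over input under all but the glmTreat test against 2-fold and, for *Slc1a4*, total counts and TMM over coding and noncoding genes. Members higher than input, and higher than both controls, numbered 2 under total counts and under TMM over coding and noncoding genes, and 1 under glmTreat, and both were 6 at an FDR of 0.05 with no fold limit, which added *Slc17a6* and *Slc17a8*. *Slc1a1* over input fell below 2-fold under total counts, DESeq2 size factors, DESeq2's Wald test, upper quartile, TMM with noncoding genes, no filter, the fit of the 2 groups alone and without IgG RIP replicates 1 and 2, with log2 fold changes between 0.61 and 0.97, and under glmTreat it kept its value of 1.08 without passing (FDR 0.356). *Slc17a6* over IgG RIP lost its call under total counts (0.75), upper quartile (0.85), TMM with noncoding genes (0.89) and glmTreat, and *Slc17a8* under glmTreat. *Slc1a6* was called lower than IgG RIP under total counts (-1.07) and at an FDR of 0.05 with no fold limit (-0.70), and over input it lost its call under glmTreat. Without 1 library at a time, members higher than IgG RIP numbered 5 to 6, higher than input 3 to 4, higher than both 3 to 4, and different between the controls 0 to 1. The last count was 2 with TMM over coding and noncoding genes, 1 under total counts, DESeq2 size factors, no filter, DESeq2's Wald test and without IgG RIP replicates 1 and 2 (an alternative chosen after seeing the data, like *Slc1a2* without 1 row), and 6 at an FDR of 0.05 with no fold limit.

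*Slc1a5* over IgG RIP changed sign under total counts (-0.11), upper quartile (-0.0088), and without IgG RIP replicates 1 and 2 (-0.44), and ranged from -0.027 to 0.67 without 1 library. Over input it changed sign under total counts (-0.41), DESeq2 size factors (-0.093), upper quartile (-0.19), TMM with noncoding genes (-0.34), no filter (-0.072), DESeq2's Wald test (-0.093), the 2 groups alone (-0.18), the block with CELF2-KI RIP and input only (-0.18) and without IgG RIP replicates 1 and 2 (-0.063), ranging from -0.053 to 0.12 without 1 library. IgG RIP over input changed sign for *Slc1a2* without input replicate 1 (0.028, with a range from -0.25) and for *Slc1a5* without IgG RIP replicate 1 (0.072, with a range from -0.63) and without replicates 1 and 2 (0.37).

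List genes called in both comparisons numbered 5, and 4 to 5 without 1 library. Under total counts 1 list gene was called lower than both controls and 0 higher. Under DESeq2 size factors and upper quartile 3 were called higher than both. Member rows higher than both numbered 1 with TMM on transcript rows and under total counts and 1 to 4 without 1 library, and the row differing from its gene was 1 in each such fit and 0 with limma-voom diffSplice. With replicate number as a block (paired analysis) in the fit of all 9 libraries, members higher than both controls stayed at 4, list genes at 5 and rows at 3. The block changed no call of a member, in that fit or in the fit of CELF2-KI RIP and input alone.

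The ratio differences kept their sign throughout. Against IgG RIP alone they were 1.14 for *Slc1a2* to *Slc1a3*, 1.07 for *Slc17a7* to *Slc17a6* and 1.32 for *Slc1a4* to *Slc1a5* (exact p = 0.10 each), against input alone 2.03, 0.75 and 1.22 (exact p = 0.10), with the replicate block 1.58, 0.91 and 1.27 (exact sign-flip p = 0.25), and without IgG RIP replicates 1 and 2 1.86, 0.89 and 1.36 (exact p = 0.0571). Without 1 library they ranged from 1.21 to 1.95, 0.82 to 0.999 and 1.12 to 1.43. These p-values are the smallest that the tests used here can give in each smaller design. Causes of these changes were not tested. Among the members, depth bears on *Slc1a6* and *Slc17a8*, which rested on fewer than 100 counts in some libraries.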
